A study of Mus musculus with 4 samples.

Results

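The genes described here are 10 genes of tissue macrophages and leukocytes, found on the array by their gene symbol: Csf1r, Adgre1, Cd68, Mrc1, C1qa, C1qb and Pf4 for tissue macrophages, and Ptprc, Ctss and Lyz2 for leukocytes and myeloid cells more widely. They are read by 15 of 45101 probe sets, the groups of short probes that each give 1 value per transcript, and make up 10 of the 18194 genes tested. The cells came from kidneys of chimeric mouse embryos on embryonic day 15.5, grown from wildtype blastocysts that had been injected with 3 to 5 embryonic stem cells. Those stem cells carried green fluorescent protein (GFP) and a deletion of Tfrc, the transferrin receptor. After digestion with collagenase and trypsin/EDTA, sorting separated GFP-positive cells labelled Tfrc-/- from GFP-negative wildtype cells of the host, and each group was measured on 2 Affymetrix arrays. Both groups came through a chimeric kidney, and no array analysed here holds GFP-positive cells with Tfrc intact, so what Tfrc does and what else sets the donor line apart from the host cannot be told apart. The labels give no strain for donor or host, no gate for blood cells, and no statement of which embryos or how many were used for an array.

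Macrophages of the embryonic kidney are phagocytes that settle in the organ from early blood-forming sites and live under the control of the receptor Csf1r. Later in gestation, monocytes and granulocytes made by the fetal liver reach tissues through the circulation. All of these cells carry the phosphatase CD45, encoded by Ptprc, while complement C1q, the mannose receptor Mrc1 and the scavenger protein Cd68 are made mainly by macrophages.

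Facts of the arrays as a whole bear on these values. Values are linear intensities that the authors had normalized between arrays. Median intensities were 17.5 to 19.3, and a control level, the highest of 27 bacterial control probe sets of an array, was 7.18 to 9.08. The 10 genes lay above it on all 4 arrays. The brightest Tfrc probe set was at 1759 and 2348 in GFP-negative cells and at 2509 and 3175 in GFP-positive cells, so no lower signal bears out the Tfrc-/- label, though a probe set outside the deleted part would not check it. The groups are called GFP-negative and GFP-positive below, and every direction rests on the labels. Of 11 measured genes of embryonic kidney, among them Six2, Wt1, Eya1 and Sall1, 11 were above the control level on every array. Their levels were not all alike in the groups. Without overlap 3 stood higher and 2 lower in GFP-positive cells, 27.3% and 18.2% beside 20.6% and 14.3% of all genes. Ret, with the smallest p of the list, read 1057 and 790 on GFP-negative and 104 and 65.1 on GFP-positive arrays, a log2 difference of -3.47. Beta-actin signal at the 3' end over that at the 5' end, a measure of RNA integrity, was 5.51 and 5.89 for replicates numbered 1 and 6.49 and 7.21 for those numbered 2. Of all genes, 46.6% had both arrays of one number above both of the other, against 34.9% that parted by group.

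The subsets had means on opposite sides. All 7 tissue macrophage genes had a higher mean log2 value in GFP-positive cells, by a median of 0.27, though for Adgre1, Cd68, C1qa and C1qb the sign turned when 1 array was left out. All 3 leukocyte and myeloid genes had a lower mean, by a median difference of -0.72. The median over all genes was 0.04. No overlap between the groups was seen for 3 macrophage genes, Csf1r, Mrc1 and Pf4, higher on GFP-positive arrays, where 20.6% of all genes stood so, and for Ptprc, Ctss and Lyz2, lower, where 14.3% of all genes stood so. With limma, 0 of the 10 genes and 0 of the 15 probe sets passed a p of 0.05 adjusted by Benjamini-Hochberg over the whole table. The same test called 0% of all genes and 0% of all probe sets. At an unadjusted p under 0.05 there were 4 of the 10, Pf4, Ptprc, Ctss and Lyz2, against 8.02% of all genes. Without GFP-positive replicate 2 the macrophage median was 0.74, and without GFP-positive replicate 1 it was 0.22. Without GFP-negative replicate 1 or GFP-negative replicate 2 it was 0.48 and 0.42. In whole sorted populations, fewer cells of a type and less RNA per cell cannot be told apart.

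**Figure D1:**
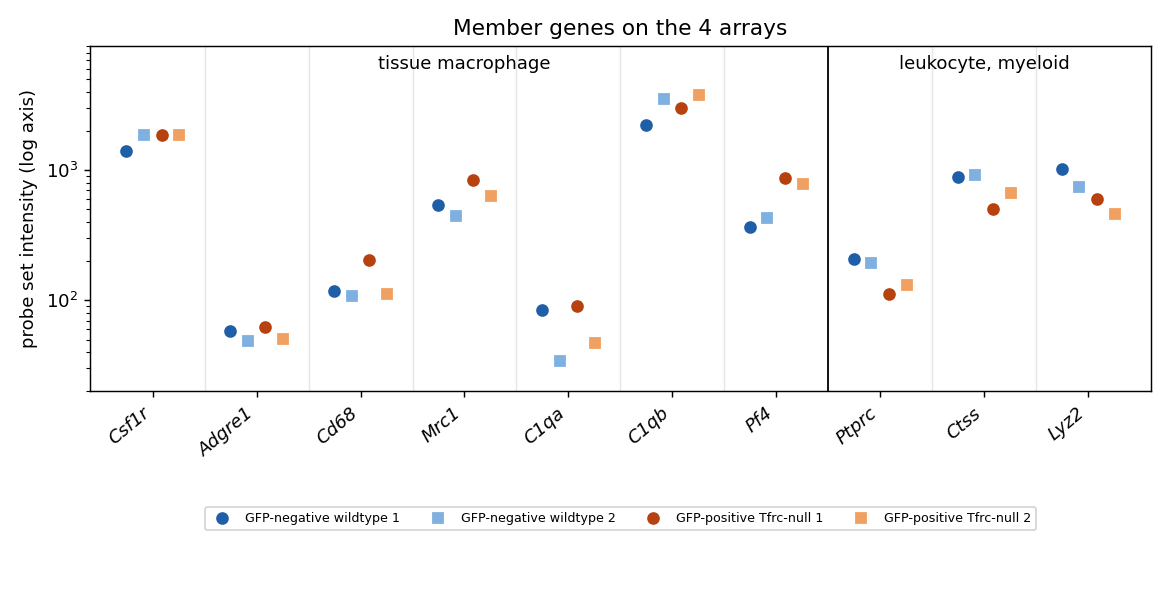
Probe set intensity on a log axis for the 10 genes, 1 point per array; blue marks the GFP-negative and orange the GFP-positive arrays, circles replicate 1 and squares replicate 2. For Ptprc, Ctss and Lyz2 both orange points lie below both blue ones, and for Pf4 and Mrc1 above, while for C1qa the circles lie above the squares in both groups.

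Csf1r encodes the receptor for the growth factors Csf1 and Il34, on which tissue macrophages depend. Its brightest probe set read 1404 and 1862 on the GFP-negative arrays and 1879 on each GFP-positive array. GFP-negative replicate 2 lay just under the other group, and the separation rested on GFP-negative replicate 1. The difference on the log2 scale was 0.22 (SE 0.22, limma adjusted p = 0.928). The second probe set read 471 and 465 against 542 and 483, a log2 difference of 0.13, and the third 85.4 and 51.4 against 85.96 and 71.4, a log2 difference of 0.24 with overlapping groups.

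Adgre1 encodes F4/80, the surface protein by which mouse macrophages are usually recognised. It read 57.8 and 49.2 on the GFP-negative arrays and 62.6 and 50.6 on the GFP-positive arrays. The groups overlapped, and the log2 difference of 0.08 (SE 0.21, limma adjusted p = 0.995) was smaller than the gap between the arrays of either group, 0.23 and 0.31. It was -0.04 without GFP-negative replicate 2 and -0.08 without GFP-positive replicate 1.

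Cd68, a glycoprotein of late endosomes and lysosomes, read 119 and 108 against 203 and 111. Only GFP-positive replicate 1 was high. On the log2 scale the groups differed by 0.41 (SE 0.32, limma adjusted p = 0.887), and -0.03 without that array.

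Mrc1 encodes the mannose receptor CD206, an endocytic receptor of resident macrophages and of some endothelia. It read 539 and 447 on the GFP-negative arrays and 834 and 634 on the GFP-positive arrays, means of 493 ± 65.3 and 734 ± 141 (SD, n = 2). Both GFP-positive arrays were higher than both GFP-negative arrays. The log2 difference came to 0.57 (SE 0.23, limma adjusted p = 0.637), a 1.48-fold higher level, and 10.2% of all genes differed by at least as much in either direction. Of 10 endothelial genes, 10 had a lower mean on the GFP-positive arrays, with a median log2 difference of -0.89. Of these, 5 were lower without overlap, 50% beside 14.3% of all genes. The part of endothelial cells in the Mrc1 values was not tested.

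C1qa and C1qb encode chains of C1q, the recognition molecule of the classical complement pathway, and lie beside C1qc in the mouse genome. C1qa read 84.4 and 34.4 on the GFP-negative arrays and 90.1 and 46.9 on the GFP-positive arrays. The arrays numbered 1 were high and those numbered 2 low in both groups, which overlapped (log2 difference 0.27, SE 0.52, limma adjusted p = 0.99). The difference was -0.38 without GFP-negative replicate 2 and -0.20 without GFP-positive replicate 1. The actin ratio above parted the arrays in the same way, and its part in the C1qa values was not tested.

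The 3 probe sets of C1qb did not show the same pattern. The brightest read 2208 and 3539 against 2999 and 3752, so here the arrays numbered 1 were the low ones. Its log2 difference was 0.26 (SE 0.29, limma adjusted p = 0.945), and -0.08 without GFP-negative replicate 1. The second lay close to it, with a log2 difference of 0.27. The third, whose probes are not marked by the maker's suffix as shared with other transcripts, read 197 and 256 against 427 and 308. On it both GFP-positive arrays were higher, with a log2 difference of 0.69 (SE 0.26, limma adjusted p = 0.667 over all probe sets). C1qc read 180 and 126 on the GFP-negative arrays and 298 and 177 on the GFP-positive arrays, a log2 difference of 0.61 (SE 0.33) with overlapping groups.

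**Figure D2:**
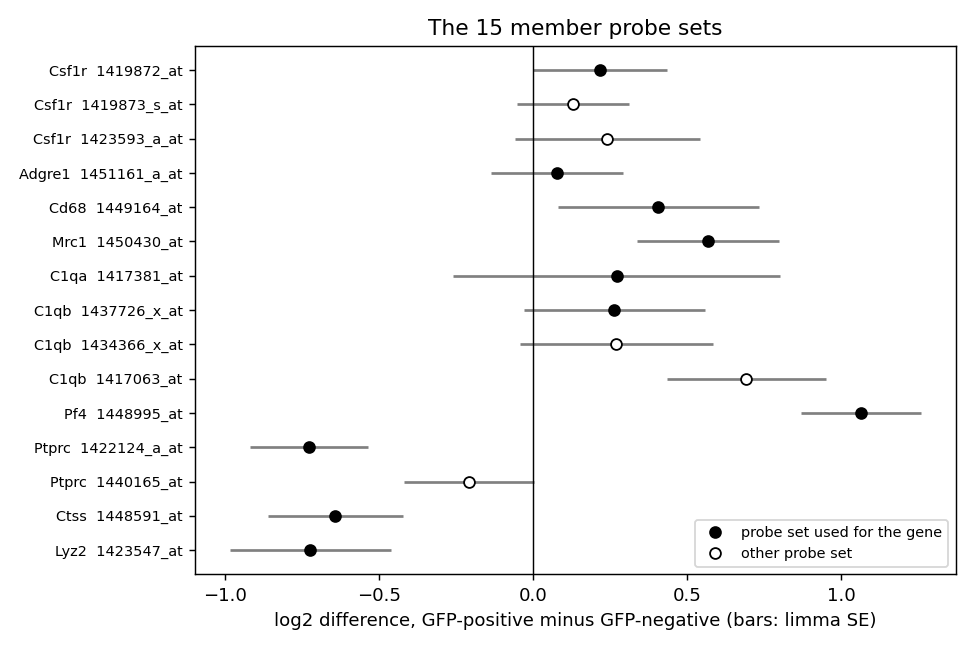
Log2 difference, GFP-positive minus GFP-negative, for each of the 15 probe sets, with bars of 1 limma standard error; filled points are the probe sets used for the gene. The 11 macrophage probe sets, with 3 each for Csf1r and C1qb, lie right of 0 and the 4 leukocyte and myeloid ones left of it. The dimmer Ptprc probe set was above the control level on only 1 array. The 3 C1qb probe sets run from 0.26 to 0.69.

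Pf4 encodes platelet factor 4, a chemokine known best from platelets and also made by embryonic macrophages. It stood furthest apart of the 10 genes. It read 368 and 427 on the GFP-negative arrays and 876 and 784 on the GFP-positive arrays. The groups did not overlap and were further apart than the arrays within either group. The difference on the log2 scale was 1.06 (SE 0.20, limma adjusted p = 0.231), a 2.09-fold higher level. A 2-fold or larger higher level without overlap was seen in 1.15% of all genes. Across the alternatives tried, the difference ran from 0.96 to 1.17 and the adjusted p from 0.143 to 1.

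Genes of platelets and their precursors were read beside Pf4. Of 11 measured, 5 had a higher and 6 a lower mean on the GFP-positive arrays, 0 passed the test, and the median log2 difference was -0.01. Without overlap 1 was higher and 3 lower, 9.09% and 27.3% beside 20.6% and 14.3% of all genes. Clec1b, with the smallest p of the list, read 19.5 and 15.2 against 9.05 and 14.6, a log2 difference of -0.58. Their summed intensity was 175 and 216 on the GFP-negative arrays and 185 and 211 on the GFP-positive arrays. Itga2b, the integrin chain that marks the lineage, read 29.6 and 27.7 against 28.96 and 27.7. Ppbp, another platelet chemokine gene, read 25.8 and 10.5 against 16.6 and 18.8, and Gp5 did not exceed the control level on any array.

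Ptprc encodes CD45, carried by all white blood cells. It read 209 and 194 on the GFP-negative arrays and 113 and 131 on the GFP-positive arrays, means of 201 ± 10.6 and 122 ± 12.7 (SD, n = 2). Both GFP-positive arrays were low. On the log2 scale the groups differed by -0.73 (SE 0.19, limma adjusted p = 0.398), a 1.66-fold lower level. The second probe set, at 9.15 and 7.38 against 6.59 and 7.67, was above the control level on 1 array and gives no usable difference.

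Ctss encodes cathepsin S, a lysosomal protease that trims the invariant chain during antigen presentation. It read 893 and 921 against 502 and 673, lower on both GFP-positive arrays, with a log2 difference of -0.64 (SE 0.22, limma adjusted p = 0.538). Its pattern over the 4 arrays was the closest to that of Ptprc among the 10 genes, with a distance of 0.20 between their mean-centred log2 values. Cd74, which encodes the invariant chain, stood the other way, at 179 and 210 on GFP-negative and 545 and 321 on GFP-positive arrays (a log2 difference of 1.11, SE 0.30, limma adjusted p = 0.417). Of 14 other lysosomal genes, 7 had a higher and 7 a lower mean, with a median of 0.04.

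Lyz2 encodes the lysozyme of macrophages, monocytes and neutrophils. It read 1029.8 and 739 on the GFP-negative arrays and 606 and 461 on the GFP-positive arrays. Both GFP-positive arrays were low, and the groups differed by -0.72 on the log2 scale (SE 0.26, limma adjusted p = 0.561), a 1.65-fold lower level. Lyz1 is a near-identical copy, so probes of one gene can bind the other's transcripts and the value of either is uncertain. The 2 brighter Lyz1 probe sets, both marked as shared, had log2 differences of -0.47 and -0.35, and the third read 7.87 to 10.6.

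The start sites of these genes are shown because genes of macrophages and leukocytes are known to be switched on through the ETS-family factor PU.1, and genes of both subsets can be set side by side. RefSeq promoter windows of the build GRCm38.p6 were matched by symbol for 7 of the 10 genes, in 8 windows. Each was searched over the 250 bases before the start, on both strands, for AGGAAGT, a run that holds the GGAA core of ETS factors. The run was chosen after these sequences were seen. It occurred in 6 of 8 windows, of 5 of 7 genes, and in 7.69% of all 32851 windows. The windows of Ptprc overlap and share a match, which is counted in both. Matches are in capitals in the 120 bases before the start, written 5′ to 3′.
Pf4, chr5:90772315-90772434, plus strand: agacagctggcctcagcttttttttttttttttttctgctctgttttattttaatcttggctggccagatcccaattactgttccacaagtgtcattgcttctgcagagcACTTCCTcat
C1qb, chr4:136886201-136886320, minus strand: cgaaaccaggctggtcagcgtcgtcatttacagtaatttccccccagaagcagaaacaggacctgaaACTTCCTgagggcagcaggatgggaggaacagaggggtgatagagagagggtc
Ptprc, chr1:138175306-138175425, minus strand: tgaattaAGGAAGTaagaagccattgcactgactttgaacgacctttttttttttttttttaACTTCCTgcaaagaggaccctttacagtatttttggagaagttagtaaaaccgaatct
Lyz2, chr10:117282273-117282392, minus strand: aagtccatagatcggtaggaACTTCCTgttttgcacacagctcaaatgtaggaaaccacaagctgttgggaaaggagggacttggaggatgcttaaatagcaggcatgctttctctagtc
The match of Pf4 begins 10 bases before the start, that of C1qb 53, those of Ptprc 113 and 58 and that of Lyz2 100 bases before it. A second Ptprc window, not shown, has a match 237 bases before its own start. It is the same site as the match 58 bases before the first Ptprc start, not a further one. Mrc1 has a match 211 bases before its start, and the windows of Ctss and Cd68 have none. Genes with a match thus include some with higher means (Pf4, Mrc1, C1qb) and some with lower means (Ptprc, Lyz2) on the GFP-positive arrays. A match describes letters only and is no evidence of binding.

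Other genes of macrophage biology were read from lists, and 0 genes passed the test in any of them. Among 11 measured ligands and transcription factors of the lineage, 4 stood higher and 3 lower without overlap, 36.4% and 27.3% beside 20.6% and 14.3% of all genes. Csf1, a ligand of Csf1r, read 48.2 and 70.5 against 72.6 and 102, and the factor Irf8 54.4 and 54.5 against 76.9 and 76.8. Runx1, a factor of blood cell formation, stood lower, at 62.2 and 48.1 against 34.5 and 28.95. Spi1, which encodes PU.1, read 24.4 and 25.2 against 20.4 and 22.5. Il34, the other ligand of Csf1r, was above the control level on 1 array.

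Of 16 macrophage surface and phagocytic genes, 12 had a higher mean, and the median log2 difference was 0.14. Without overlap 4 stood higher and 4 lower, 25% each way, where all genes had 20.6% and 14.3%. The scavenger receptor Msr1 read 81.8 and 85.04 against 114 and 146 and the endotoxin co-receptor Cd14 108 and 95.3 against 139 and 168. Ly86 and the oxidase subunit Cybb stood lower, with log2 differences of -0.56 and -0.51. Among 9 genes of antigen presentation and dendritic cells, 7 had a higher mean, as did 10469 of all 18194 genes. Without overlap 4 stood higher and 1 lower, 44.4% and 11.1%, and the median log2 difference was 0.35. The smallest p values were those of Cd74 and H2-Aa, with log2 differences of 1.11 and 0.66. Among 6 complement genes other than C1q, the C1 inhibitor gene Serping1 and C2 had log2 differences of 0.83 and 0.47 and the receptor gene C5ar1 -0.48.

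Genes of fetal-type resident macrophages formed a list in which 10 of 13 measured members had a higher mean in GFP-positive cells. Of the 13, 8 were higher without overlap and 0 lower, 61.5% beside 20.6% of all genes, and the median log2 difference was 0.59. The folate receptor gene Folr2 read 21.1 and 19.7 on the GFP-negative arrays and 50.2 and 41.3 on the GFP-positive arrays (a log2 difference of 1.16, SE 0.20, limma adjusted p = 0.213). Fcna, a lectin of the complement system, read 14.9 and 13.1 against 59.8 and 29.8, and the hyaluronan receptor gene Lyve1 37.02 and 31.1 against 125 and 65.5. F13a1, a transglutaminase gene of macrophages and platelets, read 424 and 403 against 664 and 738, with a log2 difference of 0.76. GFP-positive replicate 1 was the highest array for Folr2, Fcna and Lyve1, and the scavenger receptor gene Cd163 read 34.8 on both GFP-negative arrays and 134 and 44.1 on the others. Without that array the list's median was 0.23, and with 16 added to each intensity 0.28. Timd4 and Stab1 had overlapping groups, and Vsig4 did not exceed the control level on any array.

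**Figure D3:**
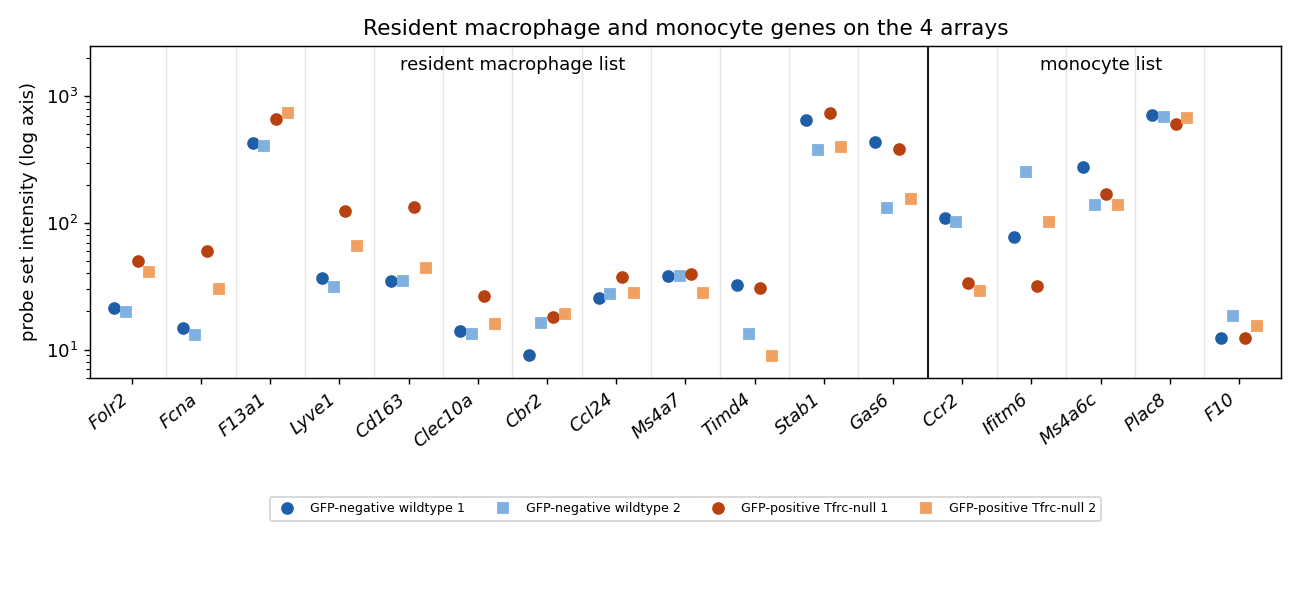
Probe set intensity on a log axis for genes of the resident macrophage and monocyte lists that were above the control level on all 4 arrays, 1 point per array, with colours by group and shapes by replicate. Both orange points lie above both blue ones for Folr2, Fcna, F13a1, Lyve1 and Cd163, and below them for Ccr2 and Plac8.

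Genes of circulating monocytes and neutrophils had mostly lower means in GFP-positive cells, and 0 of them passed the test. Of 6 monocyte genes, 6 had a lower mean and 3 were lower without overlap, 50% beside 14.3% of all genes. They were Ccr2, Plac8 and Chil3, which at 6.73 and 7.67 against 4.24 and 4.87 did not exceed the control level on any array. The median log2 difference was -0.51, and -0.25 with 16 added to each intensity. Ccr2, the receptor by which monocytes leave the blood, read 110 and 102 on the GFP-negative arrays and 33.6 and 29.3 on the GFP-positive arrays, means of 106 ± 5.67 and 31.4 ± 3.05 (SD, n = 2). Both GFP-positive arrays were low (log2 difference -1.75, SE 0.19, limma adjusted p = 0.122), a 3.36-fold lower level. Plac8 read 707 and 688 against 603 and 669, and Ifitm6 had overlapping groups.

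Of 13 neutrophil genes, 9 had a lower and 4 a higher mean, and the median log2 difference was -0.99. Without overlap 7 were lower and 1 higher, 53.8% and 7.69% beside 14.3% and 20.6% of all genes. The 1 higher was Ctsg, at 5.56 and 4.79 against 5.91 and 5.75, below the control level throughout. Of the 13, 6 were above the control level on all 4 arrays. S100a8, a subunit of calprotectin, read 2018 and 3857 against 71.03 and 358, and S100a9 2264 and 3360 against 22.02 and 157. The summed intensity of the list was 4622 and 7774 against 216 and 667. On the GFP-negative arrays S100a8 and S100a9 made up most of that sum, so it says little of the other genes. Among those, Ltf read 50.5 and 75.9 against 8.67 and 10.8, and Mmp9 78.8 and 74.7 against 18.6 and 23.1. Ngp, above the control level on 3 arrays, read 82.3 and 277 against 9.33 and 7.49. The granule genes Elane and Ctsg and the receptor gene Cxcr2 did not exceed the control level on any array. Lyz2, Ptprc and Ctss are also transcribed in neutrophils or monocytes, and the medians of both lists were below 0, as were the differences of these 3 genes. The part of either cell type in their values was not tested.

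Pan-leukocyte genes other than Ptprc had a median log2 difference of -0.03. With 1 array left out it was -0.24 without GFP-positive replicate 1 and 0.02 without GFP-positive replicate 2. It was -0.04 without GFP-negative replicate 1 and -0.17 without GFP-negative replicate 2. Of 17 measured, 6 were lower and 0 higher without overlap, 35.3% and 0% beside 14.3% and 20.6% of all genes. The integrin chain Itgb2 read 32.3 and 24.3 on the GFP-negative arrays and 11.8 and 17.2 on the GFP-positive arrays (a log2 difference of -0.97), and Cd52 208 and 226 against 160.4 and 147 (-0.50). Coro1a, Lcp1, Laptm5 and Arhgdib, which are transcribed across white cells, had log2 differences of 0.05, -0.03, 0.14 and 0.03. Of 12 lymphocyte genes, 2 stood higher and 2 lower without overlap, 16.7% each way and near the 20.6% and 14.3% of all genes. Cd3e, Cd3g, Rag2 and Pax5 did not exceed the control level on any array. Of 7 mast cell genes, 1 stood higher and 3 lower without overlap, 14.3% and 42.9% beside 20.6% and 14.3% of all genes, with a median of -0.20. Erythroid genes, which any blood in the kidney would bring, had a summed intensity of 1341 and 3950 on GFP-negative arrays and 97.7 and 111 on GFP-positive arrays. On the GFP-negative arrays Hbb-y and Alas2 made up most of that sum. Of 8 measured, 7 were lower and 0 higher without overlap, 87.5% and 0% beside 14.3% and 20.6% of all genes. Among the lower ones, Epb42 and Rhag did not exceed the control level on any array. The part of erythroid genes in the values of the 10 genes was not tested.

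**Figure D4:**
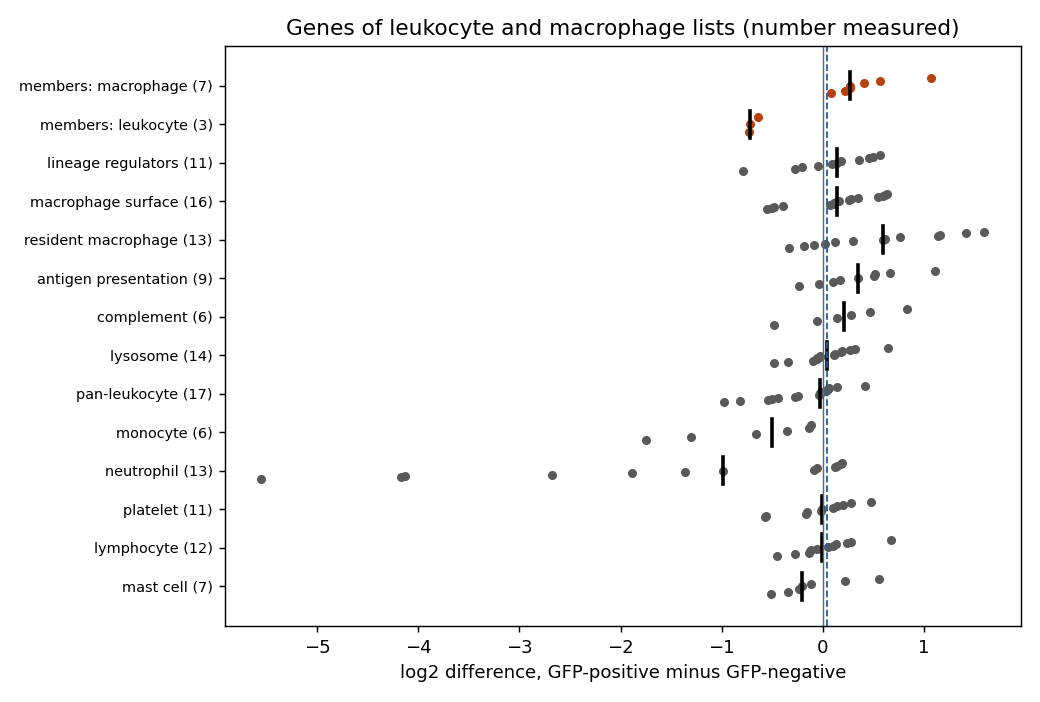
Log2 difference, GFP-positive minus GFP-negative, for each gene of the macrophage and leukocyte lists, 1 point per gene, with the number of genes measured in brackets. Black bars are list medians, from -0.99 for neutrophil genes to 0.59 for resident macrophage genes, and the dashed line is the median of all genes, 0.04.

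By likeness over the 4 arrays, the genes closest to Pf4 among 13562 compared were Adam12, Gm15050, Mkx and Bcat2, at distances of 0.12 to 0.13 between mean-centred log2 values. Adam12 read 193 and 203 against 421 and 380. The closest to Ptprc were Hipk1, Ctla2b, Dsp and Mfap3l, at distances of 0.05 to 0.08, and the kinase gene Hipk1 read 878 and 844 against 494 and 569. A pattern over 4 arrays is matched by many genes, and these are given as a description.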

How the data were processed

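The deposited values are linear probe set intensities, and RMA is the only tool in the submitters' processing notes, so the authors' values were already background-adjusted and normalized between arrays. Per the labels' protocols, 50 ng of total RNA was amplified by an isothermal linear method. RMA's version and settings, and how its log2 output became linear, are not given in the sources used here. They were converted to log2 and not normalized again. Of 45101 probe sets, 34958 had 1 gene symbol in the platform annotation, 932 several and 9211 none. Symbols were updated by Entrez identifier through a RefSeq table (GRCm38.p6). A gene was read from the brightest of its probe sets by mean log2 value. Differences, GFP-positive minus GFP-negative, were fitted in R 4.3.3 by limma 3.58.1 (lmFit, eBayes) without a block; p was adjusted by Benjamini-Hochberg across the 18194 genes or, for single probe sets, across all 45101, with a threshold of 0.05. Scripts were tested on simulated data. Means are linear intensity ± SD. Intensities of different genes are set together only in the summed intensities of lists, where bright genes weigh most.

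With 2 arrays against 2, an exact two-sided permutation test cannot go below 0.333, and the number of arrays limits the precision. The labels call them biological replicates without naming animals, so p-values measure the spread between these samples. The genes, their lists and the tests were chosen with earlier results of these data known. Named genes are every member with every probe set, up to 4 genes with the smallest p per list, and the 4 genes most like Pf4 and Ptprc in mean-centred log2 values among genes above the control level on all 4 arrays. Itga2b, Ppbp, Gp5, Gp9, C1qc, Spi1, Il34, Six2, Wt1, Eya1, Sall1, Plac8, Cd163, Coro1a, Lcp1, Laptm5, Arhgdib, Timd4, Stab1, S100a8 and genes named as at or below the control level were chosen after their values were seen. Alternatives were a replicate block, each array left out, 2 renormalizations, a log offset of 16, a filter on dim probe sets, 2 other choices of probe set, and a trended robust variance.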

Additional observations from a re-analysis of the deposited data

How the results depend on the processing

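Csf1r, Mrc1, Pf4, Ptprc, Ctss and Lyz2 kept their direction under all 12 alternatives, and none of the 10 genes passed the threshold under any. With 1 array left out, Adgre1 ran from -0.076 to 0.23, Cd68 from -0.025 to 0.84, C1qa from -0.38 to 0.92 and C1qb from -0.077 to 0.60, turning below 0 without GFP-positive replicate 1 (Adgre1, Cd68, C1qa), GFP-negative replicate 2 (Adgre1, C1qa) or GFP-negative replicate 1 (C1qb). In these fits the lone array is assumed to vary like the other group. The macrophage median then ran from 0.22 to 0.74 and the leukocyte and myeloid median from -0.83 to -0.62. The number of the 10 genes higher without overlap ran from 4 to 6, since 1 array is parted from 2 more easily than 2 are. The median of the resident macrophage list ran from 0.23 to 0.68, and with an offset of 16 it was 0.28 and that of the monocyte list -0.25; these list alternatives were chosen after seeing the data. Of all genes, 0 passed with limma, with 1459 at an unadjusted p under 0.05. The replicate block, median centring and the trended robust variance each called 2 genes, Stfa2l1 and Stfa3, and the mean of all probe sets called 1, Stfa3. Same-numbered arrays deviated together (correlation 0.51 over genes, 2 pairs), which with 2 pairs does not show that they are paired samples. With the replicate block the adjusted p was 0.143 at the lowest among the 10 genes and the block changed no call among them. Signal over background limits the second Ptprc probe set, above the control level on 1 array, and the dim genes of the lists.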
